A study of Mus musculus with 4 samples.

Results

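The genes examined here were the organic anion and cation uptake transporters of mouse liver, chosen by name: every gene with a symbol beginning Slco, Slc22a or Slc10a and a number, other than Slc10a1, that had a probe set of its own on the array. There were 40 such genes of the 18194 genes measured, namely 15 Slco, 21 Slc22 and 4 Slc10 genes, and together they had 67 probe sets. Liver mRNA had been measured on 4 Affymetrix mouse expression arrays, 1 for each genotype, and each array received equal amounts of RNA from 3 mice at 5 weeks of age. The WT mice carried floxed Rps6 alleles without Cre. DS6 mice (ΔS6 in the paper) carried the same alleles with Albumin-Cre, which acts in hepatoblasts from before birth and so reaches hepatocytes and bile duct cells, and in which deletion of Rps6, the gene of ribosomal protein S6, was incomplete. Myc mice carried an Albumin-c-Myc transgene, which drives c-Myc in hepatocytes, and no Cre was named for them. DS6 Myc mice had the deletion and the transgene. The labels describe all mice as males that had not been fasted, and the strain was a mixed hybrid.

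Hepatocytes take up bile acids, bilirubin, hormones and drugs from blood through carriers of the basolateral membrane. The Slco genes encode the organic anion transporting polypeptides (OATPs), which carry bulky, often protein-bound anions. The Slc22 genes encode organic cation, carnitine and organic anion transporters, many of them best known from the kidney. The Slc10 genes encode carriers of bile acids and steroid sulfates and some orphan members. In mice the hepatic levels of several of these transporters differ between the sexes, with Slco1a1 predominant in males and Slco1a4 in females, under control of growth hormone and sex steroids.

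The values were log2 expression values made by RMA, a summary of the probes of 1 probe set, and a difference of 1 between arrays is a 2-fold difference. A gene was called different at 2-fold or more. With 1 array per genotype there was no replicate, and no p-value was computed. As a guide to size, probe sets of the same gene with a mean value of at least 8 differed in their ratio of DS6 over WT by a standard deviation of 0.27 (3379 genes), which is not a replicate error. The WT array stood apart in ways that the labels do not give. Xist, which silences an X chromosome in female cells, was at 11.84 on it and at 5.88 to 6.33 on the others. The Y chromosome genes Eif2s3y (8.67), Kdm5d (7.70) and Uty (7.73) were each within 2-fold of the other arrays on it. The sex of the mice in the WT pool was not tested. All 8 measured pancreatic acinar genes were at least 2-fold lower in DS6 than in WT. Against Myc, 2 of these 8 genes were lower in DS6. The DS6 results are therefore also given over the Myc array where this changes a call or a count at 2-fold, or the direction of a printed ratio. The 9 probe sets shared by Rps6 and a pseudogene were lower in DS6 than in WT (median log2 ratio -0.29) and in DS6 Myc than in Myc (-1.76), and Myc had 8.33 in WT, 8.89 in DS6, 11.68 in Myc and 11.37 in DS6 Myc liver.

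Of the 40 transporters, 10 differed at least 2-fold in 1 or more of 5 comparisons, beside 12.5% of all genes, and 30 in none. The 10 were Slco1a1, Slco1a4, Slco1b2, Slco2b1, Slc22a7, Slc22a26, Slc22a27, Slc22a29, Slc22a30 and Slc10a2. All 4 arrays lay below 6 for 11 of the 40 genes, a range in which signal was not shown to exceed background. A mean of at least 6 was reached by 27.

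**Figure D1:**
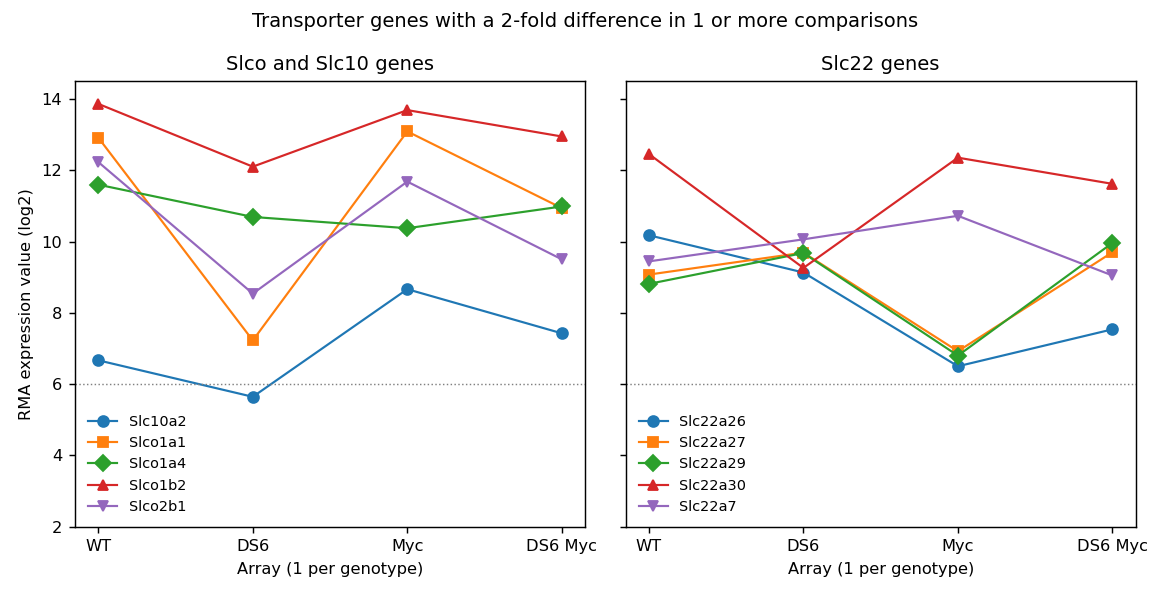
RMA expression values (log2, vertical axis) of the 10 transporter genes with a 2-fold difference in 1 or more comparisons, by genotype (horizontal axis, 1 pooled array each). Lines join the values of 1 gene and the dotted line marks a value of 6; Slco1a1 is at 7.23 in DS6 against 12.91 in WT, and Slc22a26, Slc22a27 and Slc22a29 have their lowest values, 6.50 to 6.92, in Myc.

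Deletion of Rps6 alone was accompanied by lower mRNA of the OATP genes Slco1a1, Slco1b2 and Slco2b1, while Slco1a4 was not called lower. In DS6 over WT, 6 of the 40 transporters (15.0%) were at least 2-fold lower, beside 2.54% of all genes, and 0 were at least 2-fold higher, beside 7.24% of all genes. The 6 were Slco1a1, Slco2b1, Slc22a30, Slco1b2, Slc22a26 and Slc10a2. Their differences ranged from 51.5-fold for Slco1a1 to 2.03-fold for Slc10a2. The median log2 ratio was -0.23 over the transporters and -0.05 over all genes. Over the Myc array, 5 transporters were lower in DS6, beside 2.23% of all genes, and 3 were higher, beside 7.00%. The 5 were the same genes without Slc22a26, and the 3 were Slc22a26, Slc22a27 and Slc22a29. In bulk liver RNA, fewer cells of a type and less RNA per cell cannot be told apart.

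Slco1a1, which encodes OATP1A1, had values of 12.91 in WT, 7.23 in DS6, 13.09 in Myc and 10.94 in DS6 Myc. DS6 was the lowest array and WT and Myc were close to each other. The log2 ratio was -5.69 over WT and -5.86 over Myc, so the difference did not rest on the WT array. Its other probe set had a ratio of -5.94 over WT.

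Slco2b1 encodes OATP2B1, a carrier of steroid sulfates and many drugs. It had 12.23 in WT, 8.54 in DS6, 11.68 in Myc and 9.50 in DS6 Myc. Both arrays with the deletion were below both arrays without it. The ratio of DS6 over WT was -3.69 (12.9-fold lower), and over Myc it was -3.14. The probe set behind these values ends in _s_at, which can match more than 1 transcript. Another probe set gave -2.76, and the dimmest, at 7.54 to 7.83 on all arrays, gave -0.18.

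Slco1b2 encodes OATP1B2, the mouse counterpart of the human hepatocyte carriers of bilirubin and statins. It had 13.86 in WT, 12.10 in DS6, 13.68 in Myc and 12.94 in DS6 Myc, again lowest in DS6. The ratio of DS6 was -1.76 over WT (3.39-fold lower) and -1.59 over Myc. Its 4 probe sets with a mean of at least 6 gave -1.99 to -0.86. Slco1a4, which encodes OATP1A4, a high-affinity carrier of digoxin, did not follow this order. Its values were 11.59 in WT, 10.69 in DS6, 10.37 in Myc and 10.98 in DS6 Myc. WT was the highest array, and the ratio of DS6 was -0.90 over WT but 0.32 over Myc.

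Among the other Slco genes no 2-fold difference was seen with the probe set used for each gene. Slco2a1, the prostaglandin transporter, had 10.97 in WT, 11.05 in DS6, 10.48 in Myc and 10.29 in DS6 Myc. Slco3a1, a widely expressed OATP, had 7.71 in WT, 8.57 in DS6, 7.94 in Myc and 8.08 in DS6 Myc. DS6 was its highest array, with a ratio of 0.86 over WT and 0.63 over Myc. Its 3 probe sets gave 0.86 to 1.13 over WT and 0.63 to 1.31 over Myc. The remaining 9 Slco genes were Slco1a5, Slco1a6, Slco1c1, Slco4a1, Slco4c1, Slco5a1, Slco6b1, Slco6c1 and Slco6d1, with known sites of expression outside the hepatocyte for several of them.

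In the Slc22 family, Slc22a30, an orphan member of the rodent organic anion transporter branch, was the gene with the largest difference in DS6. Its values were 12.45 in WT, 9.26 in DS6, 12.35 in Myc and 11.62 in DS6 Myc. DS6 lay well below the other 3 arrays, 9.15-fold below WT and 8.53-fold below Myc. Slc22a26, another orphan of that branch, had 10.18 in WT and 9.13 in DS6, a ratio of -1.04, but only 6.50 in Myc, so that its ratio of DS6 over Myc was 2.63. Its call in DS6 therefore changes direction with the reference array.

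Slc22a27 and Slc22a29, neighbours of the same branch, were on the high side in DS6. Slc22a27 had 9.07 in WT, 9.69 in DS6, 6.92 in Myc and 9.70 in DS6 Myc, and Slc22a29 had 8.81, 9.68, 6.80 and 9.96. For both genes the Myc array was alone at the low end. Over WT the DS6 ratios were 0.62 and 0.87, under 2-fold. Both genes are measured by a probe set ending in _x_at, which can also bind related transcripts.

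Slc22a7, the gene of OAT2, a hepatic carrier of nucleosides and small anions, had 9.44 in WT, 10.06 in DS6, 10.72 in Myc and 9.05 in DS6 Myc. The ratio of DS6 was 0.62 over WT but -0.66 over Myc, so its direction turned with the reference array. Slc22a5, the gene of the carnitine transporter OCTN2, stayed within 2-fold, with values of 10.25 in WT, 9.89 in DS6, 10.02 in Myc and 10.31 in DS6 Myc. Slc22a18, a gene of an imprinted region, had 11.80, 11.19, 11.64 and 11.20, and the orphan Slc22a23 had 10.85, 10.35, 10.56 and 10.35. In both of these the arrays with the deletion were the lowest, by less than 2-fold.

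Of the organic anion transporters best known from the kidney, Slc22a6 and Slc22a8 gave little signal in liver. Slc22a6 (OAT1) lay between 5.69 and 6.07 and Slc22a8 (OAT3) between 5.56 and 5.86. Slc22a12, the urate exchanger of the kidney, lay between 8.30 and 8.48, and Slc22a15 and Slc22a16 between 7.98 and 8.35, nearly flat over the arrays. Of 6 measured kidney tubule markers, 3 lay below 6 on all arrays and 0 differed 2-fold in any comparison. Slc22a2, the gene of the kidney cation transporter OCT2 and the only organic cation transporter among the members, went from 6.87 in WT to 6.27 in DS6. Slc22a4, the gene of the ergothioneine carrier OCTN1, had 6.20 in WT, 5.38 in DS6, 6.10 in Myc and 5.46 in DS6 Myc. The other Slc22 members, Slc22a13, Slc22a14, Slc22a17, Slc22a19, Slc22a21 and Slc22a22, had DS6 ratios over WT from -0.33 to 0.40.

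Slc10a2 encodes the apical bile acid transporter ASBT of ileum, kidney and bile duct cells. It had 6.67 in WT, 5.64 in DS6, 8.66 in Myc and 7.43 in DS6 Myc. Each array with the deletion was lower than its counterpart without it, by 1.02 and 1.24, and each array with the transgene was higher than its counterpart, by 1.99 and 1.78. The DS6 value is below 6, so the size of its ratio is uncertain. Slc10a6, a carrier of steroid sulfates, had 7.31 in WT, 8.05 in DS6, 7.29 in Myc and 7.11 in DS6 Myc. The orphan members Slc10a3 and Slc10a7 differed by at most 0.56. Slc10a1, the bile acid carrier NTCP, which is not among the 40, had 14.14 in WT, 12.85 in DS6, 14.05 in Myc and 12.72 in DS6 Myc.

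The Slco and Slc22 families were set side by side. In DS6 over WT the median log2 ratio was -0.23 for 15 Slco genes (range -5.69 to 0.86) and -0.30 for 21 Slc22 genes (-3.19 to 0.87), with 3 and 2 genes at least 2-fold lower. In DS6 over Myc, 3 Slco genes were lower and 0 higher, and 1 Slc22 gene was lower and 3 were higher. Among genes with a mean of at least 6 the medians were -0.70 for Slco and -0.32 for Slc22 genes, so the order of the families turned when dim genes were left out. Within the Slco family all 6 genes of the OATP1 subfamily had ratios below 0 (median -0.66), as had 10180 of all 18194 genes, and Slco1a5, Slco1a6 and Slco1c1 among them lay below 6 on all arrays. Over Myc, 5 of the 6 were below 0 (median -0.34). These differences between families were not tested. A few genes at the extremes set both families apart from the bulk of their members, most of which had small ratios.

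**Figure D2:**
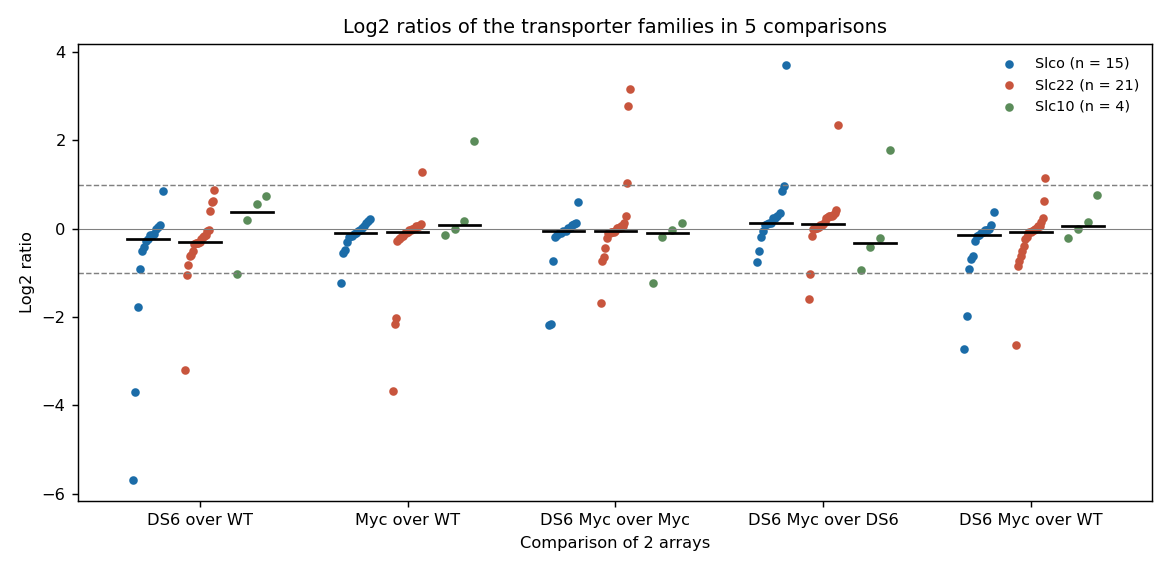
Log2 ratios (vertical axis) of the 15 Slco, 21 Slc22 and 4 Slc10 genes in 5 comparisons of 2 arrays (horizontal axis); each point is 1 gene, black bars are family medians and dashed lines mark 2-fold. The Slco and Slc22 medians lie between -0.30 and 0.13 in all 5 comparisons, and the lowest point is Slco1a1 at -5.69 in DS6 over WT.

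The transgene alone left most transporters near WT. In Myc over WT, 4 of 40 (10.0%) were at least 2-fold lower, beside 0.335% of all genes, and 2 (5.00%) were higher, beside 0.418%. The lower ones were Slc22a26 (log2 ratio -3.67, 12.8-fold), Slc22a27 (-2.15), Slc22a29 (-2.01) and Slco1a4 (-1.22). The higher ones were Slc10a2 (1.99) and Slc22a7 (1.28). The OATP genes Slco1a1 (0.17), Slco1b2 (-0.17) and Slco2b1 (-0.55) and the orphan Slc22a30 (-0.10) were within 2-fold. All 6 calls use the WT array. Without it, Myc can be compared only with arrays of mice carrying the Rps6 deletion. Slc22a26, Slc22a27 and Slc22a29 were also lower in Myc than in DS6, by 6.19-fold, 6.80-fold and 7.35-fold, and lower than in DS6 Myc.

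Deletion of Rps6 was also measured between the 2 arrays with the transgene, a comparison that shares no array with DS6 over WT. In DS6 Myc over Myc, 4 of 40 transporters (10.0%) were at least 2-fold lower, beside 1.36% of all genes, and 3 (7.50%) were higher, beside 1.99%. Slco1a1 (-2.15) and Slco2b1 (-2.18) were lower, as in DS6 over WT, and so was Slc10a2 (-1.24). Slc22a7 was lower by 3.19-fold (-1.67), against a ratio of 0.62 in DS6 over WT. Slc22a29 (3.16), Slc22a27 (2.78) and Slc22a26 (1.04) were higher. Slco1b2 (-0.74) and Slc22a30 (-0.73) were lower by less than 2-fold. The second probe set of Slc22a26 gave 0.20 here.

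**Figure D3:**
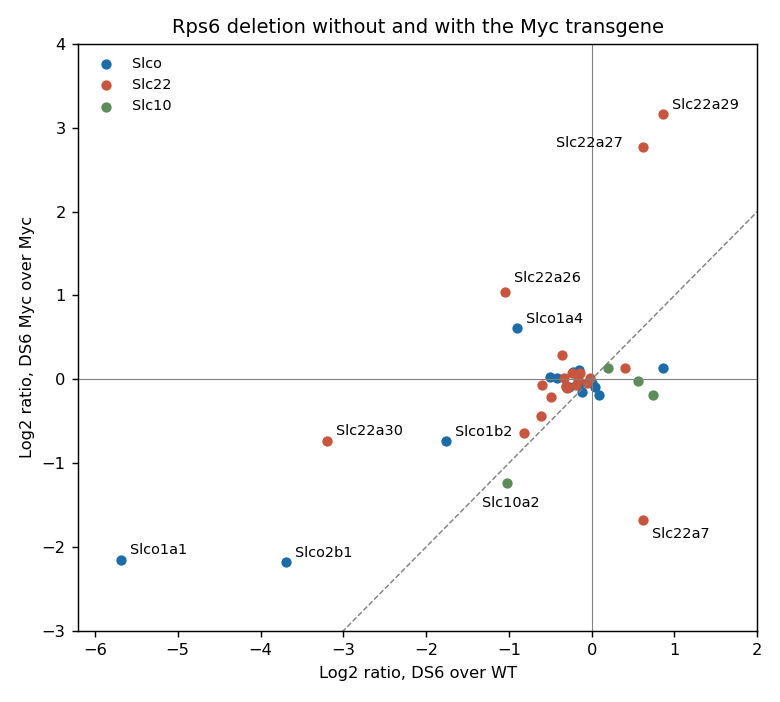
Log2 ratio of Rps6 deletion without the transgene (DS6 over WT, horizontal axis) and with it (DS6 Myc over Myc, vertical axis) for the 40 transporters, coloured by family; each point is 1 gene, labels mark genes with a 2-fold difference in any of the 5 comparisons, and the dashed line marks equal ratios. Slco1a1 and Slco2b1 lie low on both axes, while Slc22a7 and Slc22a26 lie on opposite sides of 0 on the 2 axes.

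With the transgene added to Rps6-deficient liver, Slco1a1 was the only Slco gene called higher. In DS6 Myc over DS6, 3 of 40 transporters (7.50%) were at least 2-fold higher, beside 0.769% of all genes, and 2 (5.00%) were lower, beside 4.29%. Slco1a1 was 13.1-fold higher (3.71), Slc22a30 was 5.13-fold higher (2.36) and Slc10a2 was 3.43-fold higher (1.78), from a DS6 value below 6. Slco2b1 (0.96) and Slco1b2 (0.85) were higher by less than 2-fold. The lower genes were Slc22a26 (-1.59) and Slc22a7 (-1.01). The call of Slc22a7 was lost with median-centring (-0.99) and with renewed quantile normalization (-0.97), which left 1 gene lower.

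Set against WT, 3 of 40 transporters (7.50%) were still at least 2-fold lower in DS6 Myc, beside 1.80% of all genes, and 1 (2.50%) was higher, beside 3.00%. The lower genes were Slco2b1 (-2.73), Slc22a26 (-2.64) and Slco1a1 (-1.98), and the higher one was Slc22a29 (1.15). Slco1b2 (-0.91) and Slc22a30 (-0.84) were below WT by less than 2-fold. The comparisons over WT share the WT array, so their values for a gene are not independent of each other.

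Several of these genes lie next to each other in the genome. By the gene order of GRCm38.p6, Slco1c1, Slco1b2, Slco1a4, Slco1a1, Slco1a6 and Slco1a5 follow each other on chromosome 6 with at most 1 other protein-coding gene between neighbours. Slc22a19, Slc22a26, Slc22a27, Slc22a29, Slc22a30, Slc22a8 and Slc22a6 follow each other on chromosome 19, with only another Slc22 gene in between. Neighbours did not share 1 pattern. Slco1a1 differed by -5.69 in DS6 over WT, while Slco1a6 beside it lay at 4.55 to 4.89 on all arrays and Slco1a4 on its other side differed by -0.90. On chromosome 19, Slc22a26, Slc22a27 and Slc22a29 were low in Myc, Slc22a30 was low in DS6, and Slc22a19, Slc22a8 and Slc22a6 had little signal.

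**Figure D4:**
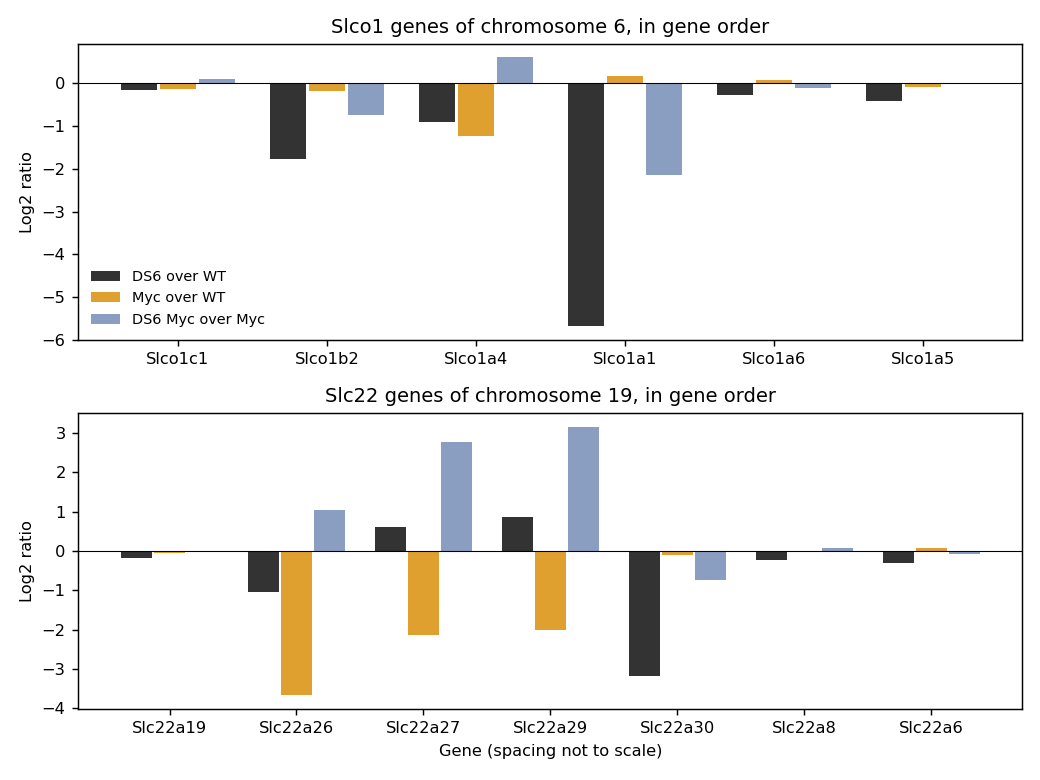
Log2 ratios (vertical axis) in DS6 over WT, Myc over WT and DS6 Myc over Myc for the Slco1 genes of chromosome 6 (top) and for Slc22 genes of chromosome 19 (bottom), in gene order (horizontal axis, spacing not to scale); each bar is 1 gene in 1 comparison of 2 arrays. In Myc over WT, Slc22a26, Slc22a27 and Slc22a29 reach -3.67, -2.15 and -2.01, and Slc22a30 beside them is at -0.10.

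Slc22a29 and Slc22a30 are neighbours with alike promoters, and their values followed different orders over the arrays. A further probe set, annotated to both genes and so left out of the 40, had 8.38 in WT, 9.29 in DS6, 6.34 in Myc and 9.85 in DS6 Myc. It followed the order of the Slc22a29 values and not that of Slc22a30. The RefSeq promoters, 250 bases before to 50 after an annotated start in GRCm38.p6, were identical at 212 of 300 bases in a global alignment (70.7%), against 42.7% for Slco1a1 and Slco1b2. They are shown to let the relatives be compared, at chr19:8218851-8219150 (minus strand) and chr19:8405056-8405355 (minus strand). Capitals mark the C/EBP motif TTGCNNAA, found in both, and the HNF1 core motif GTTAAT, found on the reverse strand in Slc22a29.
Slc22a29: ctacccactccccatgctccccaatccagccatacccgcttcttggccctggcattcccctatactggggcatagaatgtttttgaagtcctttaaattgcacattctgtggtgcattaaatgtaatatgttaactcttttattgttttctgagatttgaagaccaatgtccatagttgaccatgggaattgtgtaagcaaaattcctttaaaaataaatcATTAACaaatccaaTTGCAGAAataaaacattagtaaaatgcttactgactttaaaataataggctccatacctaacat
Slc22a30: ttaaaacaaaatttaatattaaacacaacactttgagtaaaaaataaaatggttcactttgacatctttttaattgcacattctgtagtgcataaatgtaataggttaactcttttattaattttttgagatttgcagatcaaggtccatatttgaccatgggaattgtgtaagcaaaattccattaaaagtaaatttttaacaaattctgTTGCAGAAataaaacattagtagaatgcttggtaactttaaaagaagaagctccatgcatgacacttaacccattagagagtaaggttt

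The promoters of Slco1a1 (chr6:141946913-141947212, minus strand) and Slco1b2 (chr6:141629268-141629567, plus strand) are shown because these were the OATP1 genes called lower in DS6; Slco1a4, which was not called, lies between them. Capitals mark the STAT5 motif TTCNNNGAA and the HNF1 core motif, both found in Slco1b2, and no searched motif was found in this window of Slco1a1.
Slco1a1: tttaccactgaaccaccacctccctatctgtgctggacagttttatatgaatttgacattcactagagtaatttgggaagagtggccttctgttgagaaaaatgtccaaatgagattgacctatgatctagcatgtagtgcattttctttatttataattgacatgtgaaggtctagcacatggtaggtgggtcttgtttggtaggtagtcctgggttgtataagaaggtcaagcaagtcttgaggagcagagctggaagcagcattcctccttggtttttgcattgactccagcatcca
Slco1b2: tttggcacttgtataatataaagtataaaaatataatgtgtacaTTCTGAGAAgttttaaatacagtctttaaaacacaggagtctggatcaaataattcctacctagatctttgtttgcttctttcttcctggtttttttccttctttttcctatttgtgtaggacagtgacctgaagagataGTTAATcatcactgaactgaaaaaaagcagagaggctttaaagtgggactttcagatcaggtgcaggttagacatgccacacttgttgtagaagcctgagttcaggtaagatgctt

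These motifs and the E-box CACGTG were searched on both strands, and matches of different motifs were allowed to overlap. The STAT5 motif was in 8.30% of all 32851 promoters of this length, the HNF1 core motif in 7.10%, the C/EBP motif in 10.8% and the E-box in 7.15%. Some transporters had more than 1 listed promoter. Of 40 transporter promoters, the STAT5 motif was in 8, the HNF1 core motif in 5, the C/EBP motif in 4 and the E-box in 3. By gene, promoters were listed for 35 of the 40 transporters, and a gene was counted if any of its promoters held the motif. Among these the STAT5 motif was found in 7 (Slc22a15, Slc22a16, Slc22a19, Slc22a26, Slco1a5, Slco1b2 and Slco2b1) and the HNF1 core motif in 5 (Slc10a2, Slc22a6, Slc22a8, Slc22a29 and Slco1b2). The C/EBP motif was found in 4 (Slc22a6, Slc22a29, Slc22a30 and Slco1a5) and the E-box in 3 (Slc22a4, Slc22a16 and Slco1c1). A match in a promoter is a description of its letters and not of a bound site.

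Lists of sex-biased liver genes were examined beside the transporters. Of 10 measured male-biased genes, 9 were at least 2-fold lower in DS6 than in WT and 0 higher (median log2 ratio -3.58), with the steroid dehydrogenase Hsd3b5 at -6.65, the elongase Elovl3 at -6.33, Serpina4-ps1 at -5.90 and the fatty acid hydroxylase Cyp4a12a at -5.35. In DS6 Myc over Myc 7 were lower (median -2.21), and in DS6 Myc over DS6 8 were higher (1.45). Slco1a1 had ratios of -5.69, -2.15 and 3.71 in these comparisons. Of 12 measured female-biased genes, 8 were at least 2-fold lower in Myc than in WT and 0 higher (median -1.52), and in DS6 Myc over Myc 6 were higher and 0 lower (0.69). Slc22a26, Slc22a27 and Slc22a29 were lower in the first of these and higher in the second. The list went both ways in DS6 over WT, with 4 lower and 3 higher, and in DS6 Myc over DS6, with 5 lower and 4 higher. In DS6 over Myc, 0 of these genes were lower and 6 were higher (median 1.04). The female-biased genes with the largest differences in DS6 over WT were Sult1e1 (5.19), Sult3a1 (-4.98), Prom1 (4.38) and Cyp2b13 (-3.58), and Prom1 is also on the bile duct list. In DS6 over Myc the ratios were 5.68 for Sult1e1, -0.10 for Sult3a1, 5.31 for Prom1 and -0.02 for Cyp2b13. The part of sex-biased expression, and of the Xist signal of the WT array, in the transporter results was not tested.

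**Figure D5:**
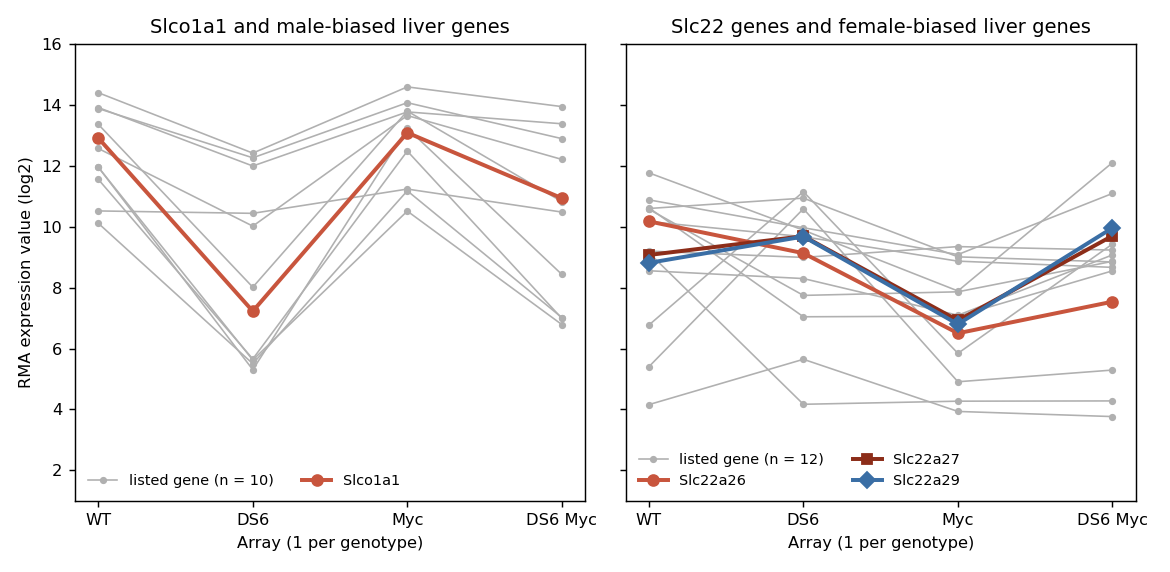
RMA expression values (log2, vertical axis) on the 4 arrays (horizontal axis, 1 per genotype) of Slco1a1 beside all 10 measured male-biased liver genes (left) and of Slc22a26, Slc22a27 and Slc22a29 beside all 12 measured female-biased liver genes (right); grey lines are the listed genes, 1 line each. The median of the male-biased genes is 12.26 in WT, 9.02 in DS6, 13.44 in Myc and 10.65 in DS6 Myc, and that of the female-biased genes is 9.68, 9.33, 7.48 and 8.85.

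Markers of the cell types in the liver were examined beside these results. None of 12 hepatocyte markers differed 2-fold in DS6 over WT (median -0.15). All 8 bile duct and progenitor markers were at least 2-fold higher in DS6 than in WT (median 4.24) and 9 of 10 macrophage and Kupffer cell markers were higher (1.84). Their summed linear levels were 1087 in WT and 23364 in DS6 for the bile duct list and 9812 and 46986 for the macrophage list. In DS6 Myc over DS6, 8 of 8 and 8 of 10 were at least 2-fold lower. Of 8 neutrophil markers 5 were higher in DS6 over WT (2.75), and of 10 endothelial and stellate cell markers 2 were (0.51). Their part in the lower transporter values was not tested.

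Carriers that export from the hepatocyte and regulators of transporter genes were described from fixed lists. Of 11 export carriers, 1 was at least 2-fold higher in DS6 over WT, the basolateral pump Abcc4 (3.04), and 1 was lower, Abcc6 (-2.13). The bile salt pump Abcb11 had -0.91 and the cation exporter Slc47a1 had -0.78. Of 16 measured regulators, 3 were lower and 0 higher (median -0.57), namely the lipid-sensing receptor Ppara (-1.78), the growth hormone receptor Ghr (-1.47) and Cebpa (-1.11). In DS6 over Myc, 3 were lower and 1 was higher (median -0.39), namely Ahr at 1.14, which had 0.58 over WT. Nr1i3, which encodes the xenobiotic sensor CAR, had -0.95 in DS6 over WT. In DS6 Myc over Myc, 2 other regulators were lower, Nr0b2 (-2.01) and Bcl6 (-1.19), and 0 higher (median -0.21), while Ppara (-0.78), Ghr (-0.61) and Cebpa (-0.48) were within 2-fold.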

How the data were processed

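Liver RNA of 3 mice per genotype was pooled and hybridized to 1 Affymetrix mouse expression array each. The authors deposited 1 log2 value per probe set and array, the product of RMA and quantile normalization. RMA and affy are the tools in the submitters' processing notes, with no version given in those notes. Array medians were 6.85 to 6.88. Detection calls were not used here, and the number of arrays limits the precision.

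Arrays were grouped by the genotype label. Of 45101 probe sets, 34958 had 1 gene symbol in the platform annotation, 932 had several and 9211 were unnamed here. All 40 transporter identifiers matched the RefSeq gene table of GRCm38.p6. Where a gene had several probe sets, that with the highest mean was used. Log2 ratios were computed between arrays for 5 comparisons and genes counted at 2-fold, below the 8-fold of the methods, with no test. Transporters at 8 or more on any array, or at 6 or more with a 2-fold difference, were described by name, most array by array and some by range. Genes of other lists were named from the 4 largest DS6 over WT ratios, with some that were called in another comparison. The transporters, lists, rules and alternatives were chosen with earlier results of these data known. Counting was tested on simulated data. Alternatives were median-centring, renewed quantile normalization, cyclic loess, a filter on dim genes, other probe set choices, thresholds of 1.5-fold and 4-fold and Myc as the reference of DS6. Python 3.11.15, pandas 2.3.3, biopython 1.88, matplotlib 3.10.9, R 4.3.3 and limma 3.58.1 (loess only) were used.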

Additional observations from a re-analysis of the deposited data

Results flagged for a closer look

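There were 3 transporters with ratios in opposite directions, at least 1.5-fold each way, when 1 change was compared in 2 backgrounds. For deletion of Rps6, Slc22a26 had a log2 ratio of -1.04 in DS6 over WT and 1.04 in DS6 Myc over Myc. Slc22a7 had 0.62 in the first of these and -1.67 in the second. Slco1a4 had -0.90 and 0.61. For the transgene, Slc22a7 had 1.28 in Myc over WT and -1.01 in DS6 Myc over DS6. Over all genes, 0.209% were opposite in this way for deletion of Rps6 and 0.478% for the transgene. The Rps6 signal did not fall alike in the 2 backgrounds. Its probe sets, shared with a pseudogene, had median log2 ratios of -0.29 in DS6 over WT and -1.76 in DS6 Myc over Myc. The ratios over WT use the array that stood apart. In DS6 over Myc the values were 2.63 for Slc22a26, -0.66 for Slc22a7 and 0.32 for Slco1a4, with the sign that each has in DS6 Myc over Myc, which shares the Myc array. The other probe set of Slc22a26 had 0.20 in DS6 Myc over Myc, under 1.5-fold. Each ratio rests on 1 array per genotype, and the difference between backgrounds was not tested.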

How the results depend on the processing

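No value here has a replicate, and signal near or below 6 was not shown to exceed background. The transporters had 28 differences of at least 2-fold in the 5 comparisons. Under the alternatives that could be computed for each, 168 of 169 values kept their direction and 164, the reversed one included, were past 2-fold. Part of this tally could not change. The filter on dim genes repeats the main values (28 of the 169). Averaging probe sets leaves genes with 1 probe set as they were. Leaving out _x_at and _s_at probe sets alters only genes measured by one. The reversed value was Slc22a26 in DS6, at 2.63 with Myc as the reference, under which 3 transporters were higher in DS6. Of the 5 others, Slc10a2 in DS6 over WT fell short of 2-fold with renewed quantile normalization (-0.98) and cyclic loess (-0.93), Slc22a7 in DS6 Myc over DS6 with median-centring (-0.99) and renewed quantile normalization (-0.97), and Slc22a26 in DS6 Myc over Myc as the mean of its probe sets (0.62). With dim genes left out, the Slco median log2 ratio was -0.70 in DS6 over WT, -0.24 in Myc over WT and -0.64 in DS6 Myc over WT, because fewer genes entered. When probe sets named _x_at or _s_at were left out, Slc22a27 and Slc22a29 have no value, and the counts became 2 lower in Myc over WT, 1 higher in DS6 Myc over Myc and 0 higher in DS6 Myc over WT. With median-centring and with renewed quantile normalization, 1 transporter was lower in DS6 Myc over DS6. At 1.5-fold, 10 were lower and 5 higher in DS6 over WT, 7 lower in DS6 Myc over Myc, 4 lower and 5 higher in DS6 Myc over DS6, and 9 lower and 3 higher in DS6 Myc over WT. At 4-fold, 3 were lower in DS6 over WT, 0 higher in Myc over WT, 2 lower in DS6 Myc over Myc, 0 lower in DS6 Myc over DS6 and 0 higher in DS6 Myc over WT. The shares over all genes were computed only at 2-fold. The counts at 1.5-fold and 4-fold therefore show only how the calls move with the threshold. Other counts and family medians stayed within 1.5 times or within the spread between probe sets.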
